A study of Mus musculus with 6 samples.

Results

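The genes for the proteins of the cytosolic ribosome were examined in islets of Abca12 KO mice, made with Rip1-Cre, and of heterozygous controls. Abca12 is a member of the ABCA family of lipid transporters. Members were taken by gene symbol, as every Rpl, Rps or Rplp gene with a number and the named paralog suffixes, plus Rpsa and without pseudogenes. This gave 83 of the 34245 genes listed: 49 of the large subunit, 31 of the small subunit and 3 of the P stalk. Fau, Rack1 and Rps3a1 also encode ribosome proteins but lie outside the symbol rule, and are given as a separate list.

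Poly(A) RNA from whole islets of 6 C57BL/6J mice aged 5 weeks was sequenced. In 3 mice (KO), labelled Abca12 tm1d, Rip1-Cre had removed a conditional floxed Abca12 allele. The 3 controls (HET) were heterozygous for the floxed allele and also carried Rip1-Cre, so Cre was common to both groups. Rip1-Cre uses the rat insulin promoter and acts mainly in beta cells, whereas the RNA came from all cells of the islet. Each library has its own animal code, and replicates were numbered in record order, so the numbers pair no libraries.

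Levels are given as RPM, the reads of a gene scaled to the total of its library, which was 27447026 to 35511008 reads. Differences are KO minus HET on the log2(RPM + 1) scale, tested with limma over the 14238 genes whose mean reached 1 RPM and adjusted by Benjamini-Hochberg. Abca12 held 2 reads in KO 1 and 0 in the other 5 libraries, which leaves the genotype labels unchecked by their own target. The 9 beta cell markers summed to 107874 to 140882 RPM in the 6 libraries, so each held much beta cell RNA. The 15 acinar markers, which come from exocrine pancreas, summed to 37369 RPM in HET 1, 15426 in KO 2 and 4095 in KO 1, against 522 to 1058 in the other 3. KO 2 stood apart in another way: it held both Xist (459 RPM) and the Y-linked Ddx3y (49.8 RPM), so its RNA may come from more than 1 animal. In KO 1 and HET 2, Xist was at 295.5 RPM or above with Ddx3y at 0. In KO 3, HET 1 and HET 3, Xist was at 0.162 RPM or below with Ddx3y at 49.7 RPM or above. Both patterns thus occurred within each genotype. No fit held a term for sex, and its part in the spread between libraries was not tested.

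Ribosomal proteins are needed in matched amounts and join ribosomal RNA in the nucleolus to form the small subunit, which reads the messenger RNA, and the large subunit, which joins amino acids. Most of their mRNAs begin with a C followed by a run of pyrimidines, the 5′ terminal oligopyrimidine (TOP) tract, through which mTORC1 and the RNA-binding protein LARP1 set their translation together. Beta cells make very large amounts of insulin, and their protein synthesis varies with glucose.

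The start sites of several members are shown because this tract is a known feature of the family's mRNAs. Of the 83 members, 63 had a promoter window in RefSeq (GRCm38.p6). A C at the annotated start followed by at least 4 further C or T was found in 13 of these (20.6%), against 813 of 27025 genes with a window (3.01%). The search read only the coding strand at the annotated base, and no match says only that these letters do not stand at that base. Each line below gives 10 bases before the start and 20 from it, with the pyrimidine run in capitals.
Rpl15, chr14:18270967-18270996, minus strand: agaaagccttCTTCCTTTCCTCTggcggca
Rps10, chr17:27635225-27635254, minus strand: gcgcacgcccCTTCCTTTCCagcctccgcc
Rps6, chr4:86857348-86857377, minus strand: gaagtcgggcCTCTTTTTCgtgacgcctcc
Rpl28, chr7:4792955-4792984, plus strand: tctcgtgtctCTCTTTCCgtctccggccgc
Rplp2, chr7:141447641-141447670, plus strand: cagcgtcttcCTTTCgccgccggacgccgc
Rps21, chr2:180257369-180257398, plus strand: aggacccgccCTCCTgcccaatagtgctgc
Rps27, chr3:90213629-90213658, minus strand: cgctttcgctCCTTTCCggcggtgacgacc
Rps27l, chr9:66946076-66946105, plus strand: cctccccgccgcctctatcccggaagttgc
Rpl36al, chr12:69184048-69184077, minus strand: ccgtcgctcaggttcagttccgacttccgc

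Rpl15 had the longest run, 13 bases, and Rps27 had 7 bases where its paralog Rps27l had none at the first of its annotated starts. Rpl36al, a copy of Rpl36a, had none either. The 13 members with such a start had a median difference of −0.06 between genotypes, and the 47 tested members with a window but no such start had −0.09.

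The ribosomal protein genes were expressed at high and uneven levels. Of the 83, 80 passed the filter of 1 RPM, and their mean levels ran from 22.6 RPM (Rpl29) to 455 RPM (Rpl4), with a median of 119 RPM. Per kilobase of annotated transcript, the median level was 167 RPM/kb, against 6.33 RPM/kb over all 13955 tested genes with a length. The highest per kilobase were Rpl41 (566 RPM/kb), which encodes the smallest ribosomal protein, Rps24 (480.0), Rpl10 (474), which joins the large subunit late in its assembly, and the stalk protein Rplp1 (452). The lowest were Rps20 (26.7 RPM/kb), Rpl7l1 (27.9), Rpl29 (38.7) and Rpl36al (55.4). This order rests on the transcript length chosen, the shortest basic transcript with an APPRIS tag: Rps20 is annotated at 3706 bases, and over the union of all annotated exons Rpl41 is at 212 RPM/kb, Rps24 at 35.9 RPM/kb and Rplp1 unchanged at 452 RPM/kb.

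The 3 members under the filter are paralogs known from other tissues. Rpl10l and Rpl39l, which act in male germ cells in mice, held 0 reads in all 6 libraries, where 3 reads correspond to 0.0845 to 0.109 RPM. Rpl3l, which is made in heart and skeletal muscle, had a mean of 0.0326 RPM. Their partners held reads in every library. By their means, Rpl3 and Rpl10 lay above the members' median of 119 RPM, and Rpl39 lay below it at 65.2 RPM. Given in the order of replicates 1 to 3, Rpl3 was at 205, 162 and 289.9 RPM in KO and at 161, 275 and 334 RPM in HET. Rpl10 was at 356, 272 and 487 RPM in KO and at 299, 394 and 466 RPM in HET. Rpl39 was at 57.1, 44.3 and 95.1 RPM in KO and at 51.5, 62.9 and 80.2 RPM in HET. In each of these 3 genes, KO 3 or HET 3 was highest, and the groups overlapped. Rps4x, the X-linked gene of the small subunit, ran from 186 RPM in KO 2 to 358 RPM in KO 3, and its paralog Rps4l was not analysed here.

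Together the family took 1.49% of the reads of listed genes in KO 1, 1.20% in KO 2 and 2.02% in KO 3. In the controls it took 1.35% in HET 1, 1.59% in HET 2 and 2.09% in HET 3. The share was thus lowest in KO 2 and highest in HET 3, with KO 3 close to HET 3, and the groups overlapped. The means were 1.57% ± 0.418 (SD, n = 3) in KO and 1.67% ± 0.378 (SD, n = 3) in HET, a difference of −0.102 percentage points (exact two-sided permutation test, p = 0.7, where 3 against 3 libraries allow no p below 0.1). The 95% Wilson intervals of the single shares had half-widths of 0.00485 to 0.00635 points, which cover counting error only. The difference was 0.0855 points without KO 2 and 0.105 points without HET 3, so its sign rests on these libraries. In whole islets, fewer cells of a type and less RNA per cell cannot be told apart.

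**Figure D1:**
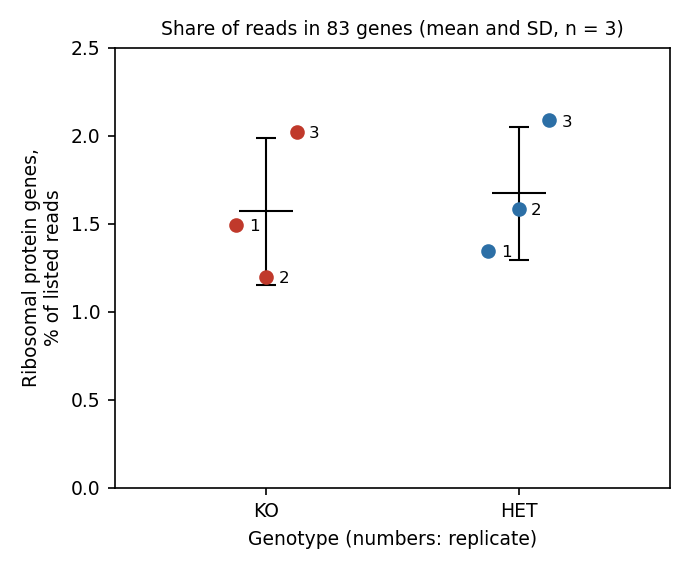
Share of reads of listed genes that fell in the 83 ribosomal protein genes, in percent, with 1 point per library numbered by replicate and the mean and SD of each genotype (n = 3). The KO libraries span 1.20% to 2.02% and the HET libraries 1.35% to 2.09%, so the groups overlap.

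The split between the subunits was steady beside this spread. Large subunit genes took 0.816%, 0.658% and 1.10% of listed reads in KO and 0.743%, 0.870% and 1.14% in HET. Small subunit genes took 0.585%, 0.465% and 0.799% in KO and 0.519%, 0.608% and 0.816% in HET. Both subunits were lowest in KO 2 and highest in HET 3, and the order of all 6 libraries was the same in both. The stalk genes took 0.0751% in KO 2 to 0.130% in HET 3.

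No ribosomal protein gene passed the test between KO and HET islets. Of the 80 tested, 0 passed an adjusted p of 0.05 in limma, as did 0 of all 14238 genes (0%). At an unadjusted limma p under 0.05 there were also 0 members, against 1.76% of all genes, and in 0 members did the groups not overlap, against 5.74% of all genes. The lowest unadjusted limma p of a member was 0.268 (Rpl36al), with an adjusted p of 0.9998. The mean was lower in KO in 62 of 80 members, against 48.6% of all genes, and the median difference was −0.09 over members and 0.01 over all genes. Differences ran from −0.39 (Rps27l) to 0.17 (Rps21), and the 95% interval of each covered 0. By subunit, 37 of 46 large subunit genes (median −0.10), 22 of 31 small subunit genes (median −0.07) and all 3 stalk genes (median −0.16) had the lower mean in KO.

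The count of 62 turned on single libraries. It was 14 of 80 without KO 2, 19 of 80 without HET 3, 80 of 80 without KO 3 and 12 of 80 with a term for the animal code, with medians of 0.10, 0.07, −0.31 and 0.08. In the same runs 48.1%, 41.1%, 52.2% and 39.9% of all genes had the lower mean in KO, with medians of 0.01, 0.04, −0.02 and 0.05. The lower animal codes belong to KO 1, KO 2 and HET 1, and the higher ones to KO 3, HET 2 and HET 3. The cut between them was set here, as the labels give a code for each library and no groups. It lies between the consecutive codes of KO 2 and HET 2, whereas the widest gap lies between those of KO 1 and HET 1. The term for the animal code uses the same cut. Within the lower codes the median difference was −0.02, with 44 of 80 members lower in KO. Within the higher codes it was 0.24, with 4 of 80 lower in KO. With the acinar marker level as covariate, 45 of 80 members were lower in KO, against 45.1% of all genes. The median was then −0.03 over members and 0.02 over all genes.

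**Figure D2:**
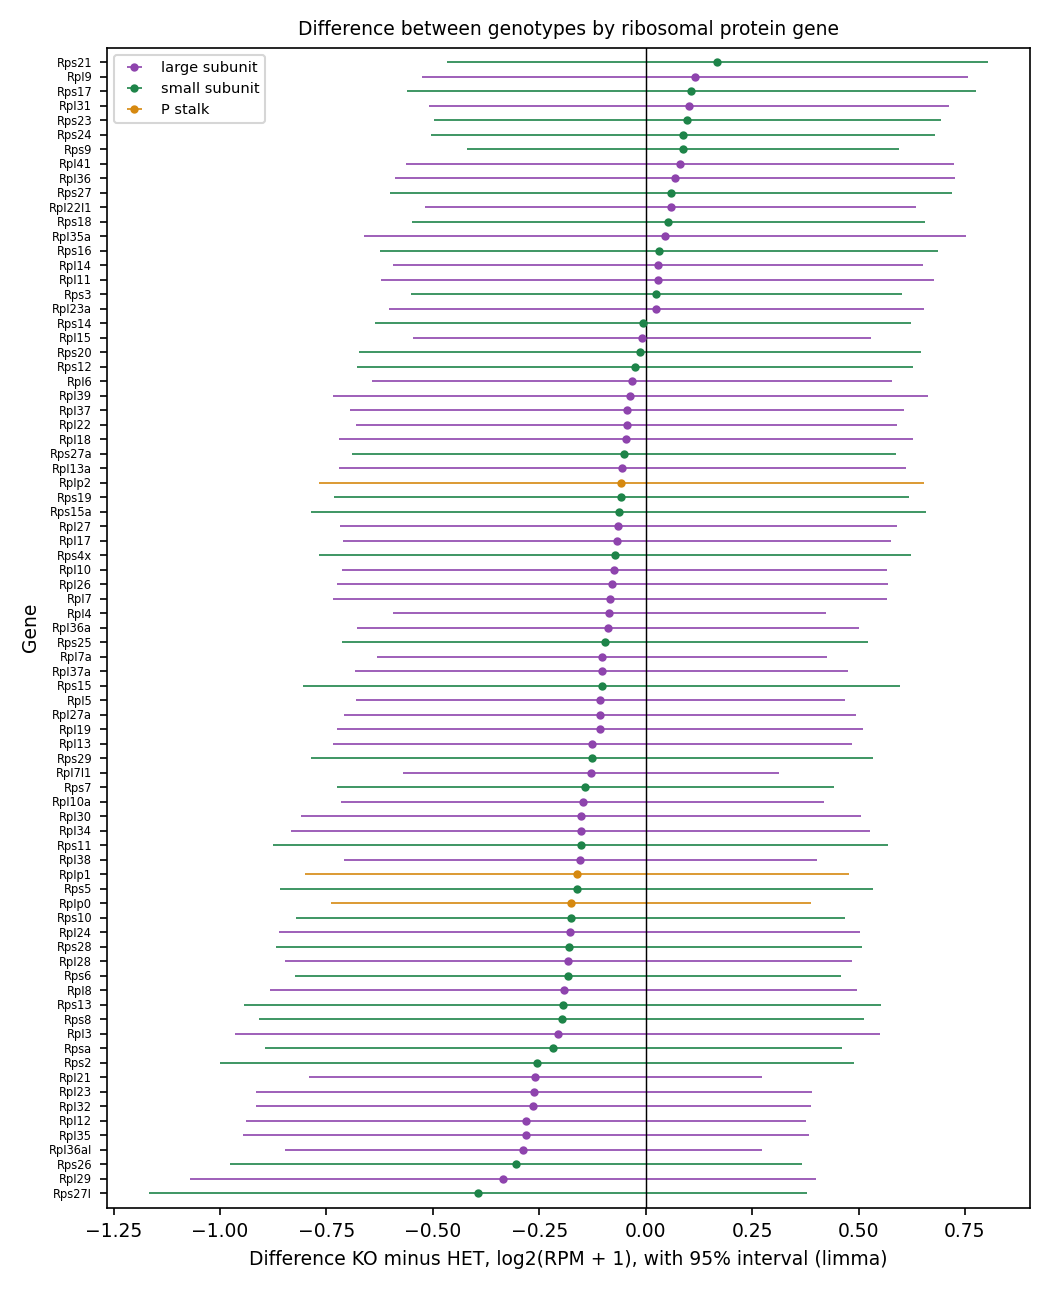
Difference between genotypes, KO minus HET on the log2(RPM + 1) scale, for the tested ribosomal protein genes reported here, ordered by size, with the 95% interval from limma and coloured by subunit. All intervals cover 0, and the differences run from −0.39 for Rps27l to 0.17 for Rps21.

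The members moved together across libraries. When each gene was centred on its own mean, the mean over the 80 members was −0.11 log2 units in KO 1, −0.44 in KO 2 and 0.41 in KO 3, and −0.24 in HET 1, −0.02 in HET 2 and 0.40 in HET 3. KO 2 was the lowest library for 76 of 80 members, against 12.6% of all tested genes. The highest was KO 3 for 39 members and HET 3 for 40, against 19.9% and 21.9% of all tested genes. The SD between libraries within a genotype was 0.379 for the family mean, against the median difference of −0.09 between genotypes. Within a library, the members lay close together, with an SD over members of 0.0768 to 0.179, against 0.311 to 0.441 over all tested genes. The sets were not matched for level, as members had means from 22.6 RPM and all tested genes from 1 RPM.

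The family was low in the 3 libraries with the highest acinar marker sums (HET 1, KO 2 and KO 1) and high or intermediate in the 3 with the lowest, though HET 1 had more acinar RNA than KO 2 and a higher family level. The part of acinar RNA in this pattern was not tested. It cannot be told apart from the lower and higher animal codes, as the cut set here splits the libraries the same way. Taking the acinar markers out of the total left the share at 1.50%, 1.23% and 2.03% in KO and 1.43%, 1.59% and 2.09% in HET. Under median-of-ratios scaling the family means were −0.06, −0.44 and 0.34 in KO and −0.10, −0.06 and 0.32 in HET, so KO 2 stayed lowest and KO 3 highest. Under upper quartile scaling they were −0.03, −0.38 and 0.33 in KO and −0.12, −0.10 and 0.30 in HET. KO 1 lay below HET 2 in RPM, level with it under median-of-ratios scaling and above it under upper quartile scaling, so the match of the family to the acinar sums held for these 2 libraries in RPM only.

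**Figure D3:**
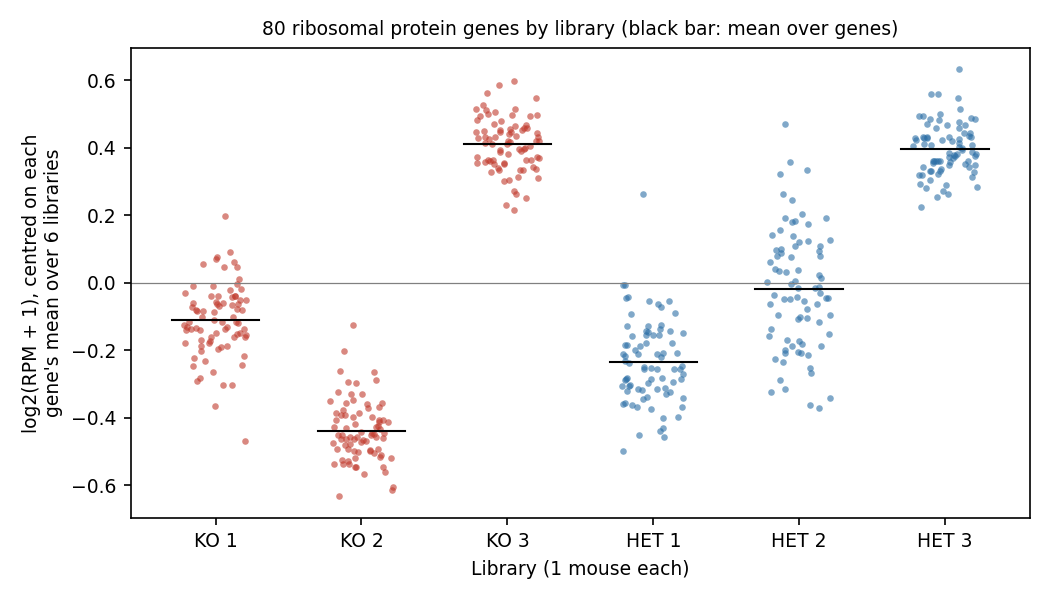
Level of each of the 80 tested ribosomal protein genes in each library, as log2(RPM + 1) centred on the gene's mean over 6 libraries, with 1 point per gene and a black bar for the mean over genes. All members lie above 0 in KO 3 and HET 3 and below 0 in KO 2, and the spread over genes is widest in HET 2.

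As a description over the same 6 libraries, in which genes share each library's depth and animal code, the correlation of a member with the mean of the other members had a median of 0.96, and 69 of 80 were over 0.9, against 6.97% of genes outside the family. The least alike were Rpl36al (0.72), Rps21 (0.81), Rpl7l1 (0.81) and Rps12 (0.84). The 5 genes outside the family whose levels followed its mean most closely were Cox7a2, Ccdc124, Rps3a1, Pagr1a and Higd2a, with r from 0.99 to 1.00. Cox7a2, a subunit of cytochrome c oxidase, was at 46.1, 35.2 and 71.3 RPM in KO and at 41.0, 49.0 and 65.8 RPM in HET. Like the family it was lowest in KO 2 and highest in KO 3.

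HET 2 had the widest spread over members, a feature singled out after its values were seen. In it, 4 members lay over 0.3 log2 units above their mean, 5 lay over 0.3 below and 71 lay between. Among those above were Rps2, Rpl28 and Rpl29, and below were Rps21, Rps12, Rps23, Rpl17 and Rpl22l1. Rps2 was at 122.5, 96.9 and 181 RPM in KO and at 103, 181 and 197 RPM in HET. Rps12 was at 105, 72.3 and 131 RPM in KO and at 100.1, 78.0 and 134 RPM in HET. Thus HET 2 was level with KO 3 for Rps2 and the next to lowest of 6 libraries for Rps12. Over the 80 members, the departure in HET 2 had a correlation of 0.37 with the GC content of the transcript, against 0.14 over all tested genes with a length. In HET 1 it was −0.36 against −0.17. Its part in these departures was not tested.

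Of the large subunit, Rpl36al had the lowest p. Rpl36al (ENSMUSG00000049751.6, chromosome 12, 69182731 to 69184083, GRCm38) was at 22.9, 20.4 and 36.1 RPM in KO and at 34.4, 26.4 and 34.5 RPM in HET. KO 3 was the highest library of all, so the groups overlapped. The KO mean was 26.5 ± 8.45 RPM and the HET mean 31.8 ± 4.62 RPM (SD, n = 3), with a difference of −0.29 ± 0.24 (SE, limma adjusted p = 0.9998, 95% interval −0.85 to 0.27). Rpl21 (chromosome 5, 146832890 to 146837032) was at 43.4, 38.1 and 61.6 RPM in KO and at 49.3, 52.1 and 68.8 RPM in HET. Its difference was −0.26 (interval −0.79 to 0.27), with KO 3 above HET 1 and HET 2. Rpl29 (chromosome 9, 106429454 to 106431568), the least abundant tested member, was at 16.5, 14.3 and 29.4 RPM in KO and at 17.1, 27.3 and 30.9 RPM in HET. Its difference was −0.34 (interval −1.07 to 0.40), and HET 1 lay with KO 1 and KO 2 at the low end.

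Rpl9 and Rpl31, also of the large subunit, had the higher mean in KO. Rpl9 (chromosome 5, 65388364 to 65391444) was at 204.5, 153 and 266 RPM in KO and at 158.5, 163 and 252 RPM in HET, a difference of 0.12 (interval −0.53 to 0.76). Rpl31 (chromosome 1, 39367842 to 39371911) was at 139, 112 and 201.5 RPM in KO and at 120.3, 122 and 173 RPM in HET, a difference of 0.10 (interval −0.51 to 0.71). In both genes KO 2 was the lowest and KO 3 the highest library, and both differences turned negative without KO 3, as did that of Rpl9 without HET 1.

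Of the small subunit, Rps27l and Rps21 stood at the ends of the range. Rps27l (ENSMUSG00000036781.13, chromosome 9, 66946086 to 66949516), a paralog of Rps27 known as a p53 target, was at 28.6, 25.4 and 57.5 RPM in KO and at 39.8, 39.0 and 62.6 RPM in HET. Its means were 37.2 ± 17.6 and 47.1 ± 13.4 RPM (SD, n = 3), and its difference was −0.39 ± 0.33 (SE, limma adjusted p = 0.9998, interval −1.17 to 0.38). KO 3 lay above HET 1 and HET 2. Rps21 (chromosome 2, 180257377 to 180258445) was at 107.5, 71.9 and 126.7 RPM in KO and at 80.7, 72.2 and 118 RPM in HET. Its difference was 0.17 (interval −0.47 to 0.80), with KO 2 and HET 2 nearly equal at the low end. Rps9 was at 159, 138 and 202 RPM in KO and at 140.0, 139 and 190.1 RPM in HET, a difference of 0.09 (interval −0.42 to 0.59).

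Rpsa, the small subunit protein also known as the laminin receptor precursor, was at 224, 169.6 and 322 RPM in KO and at 203, 284 and 333 RPM in HET. Its difference was −0.22 (interval −0.89 to 0.46). Rps6, the substrate of the S6 kinases downstream of mTORC1, was at 102, 84.0 and 149 RPM in KO and at 97.5, 119 and 163 RPM in HET, with a difference of −0.18 (interval −0.82 to 0.46). Rps27a, which is made as a fusion with ubiquitin, was at 101, 74.8 and 140.1 RPM in KO and at 97.5, 87.9 and 137.5 RPM in HET, with a difference of −0.05 (interval −0.69 to 0.59). All 3 were lowest in KO 2, and in all 3 the sign turned without KO 2, though only just for Rpsa and Rps6. The signs of Rps6 and Rps27a also turned without HET 3.

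The P stalk is the arm of the large subunit that recruits the translation factors, with Rplp0 at its base and Rplp1 and Rplp2 along it. Rplp0 was at 310.4, 263 and 416 RPM in KO and at 304, 364 and 443 RPM in HET, a difference of −0.17 (interval −0.74 to 0.39). Rplp1 was at 209.9, 153 and 281 RPM in KO and at 184, 237 and 288 RPM in HET, a difference of −0.16 (interval −0.80 to 0.48). Rplp2 was at 96.7, 71.3 and 139.8 RPM in KO and at 73.2, 114.5 and 129.8 RPM in HET, a difference of −0.06 (interval −0.77 to 0.65). KO 2 was the lowest library for all 3 genes. HET 3 was the highest for Rplp0 and Rplp1, and KO 3 for Rplp2. The differences of Rplp1 and Rplp2 turned positive without KO 2, and that of Rplp2 also without HET 2 or without HET 3.

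The ratio of a paralog to its partner within a library needs no scaling between libraries. Of 8 pairs listed, 4 were compared. Rpl3l, Rpl10l and Rpl39l had too few reads, and Rps4l was not analysed here. Rps27l stood below Rps27 in every library, with a log2 ratio of −2.31, −2.03 and −1.71 in KO and −1.41, −1.71 and −1.53 in HET. Rps27 itself was at 142, 104 and 188 RPM in KO and at 106, 128 and 181 RPM in HET. The paralog made up 16.7%, 19.7% and 23.4% of the pair in KO and 27.3%, 23.4% and 25.7% in HET, so the groups met at KO 3 and HET 2 without crossing. The mean log2 ratio was −2.02 ± 0.30 in KO and −1.55 ± 0.15 in HET (SD, n = 3), a difference of −0.47 (exact two-sided permutation test, p = 0.1, the smallest the design allows, and 0.4 adjusted over the 4 pairs). It was −0.32 to −0.62 with any 1 library left out. Within the lower animal codes the difference was −0.76, and within the higher codes it was −0.09, so it came mostly from KO 1 and KO 2 against HET 1.

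Rpl36al and Rpl36a were of similar level. Rpl36a was at 31.4, 25.5 and 47.2 RPM in KO and at 31.0, 33.6 and 43.9 RPM in HET. The log2 ratio of Rpl36al to Rpl36a was −0.46, −0.32 and −0.39 in KO and 0.15, −0.35 and −0.35 in HET, so HET 1 alone stood apart. The difference of −0.21 had a p of 0.3 (exact permutation test, 0.6 adjusted over the 4 pairs) and was −0.04 without HET 1. Rpl22l1 was close to Rpl22, at 51.5, 38.5 and 65.1 RPM in KO and 46.4, 39.6 and 62.0 RPM in HET. Its log2 ratio to Rpl22 was −0.08, −0.31 and −0.36 in KO and −0.08, −0.57 and −0.41 in HET, with a difference of 0.11 (exact permutation p = 0.6, adjusted 0.8). Rpl7l1 was at 29.6, 33.1 and 42.2 RPM in KO and at 33.1, 38.7 and 42.5 RPM in HET, below Rpl7, which ran from 149 RPM in KO 2 to 281 RPM in KO 3. Its log2 ratio was −2.67, −2.17 and −2.74 in KO and −2.35, −2.47 and −2.62 in HET, with a difference of −0.05 (exact permutation p = 0.8, adjusted 0.8). The last 2 differences turned sign with 1 library left out. Where paralogs share sequence, the authors' counting may have divided their reads.

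**Figure D4:**
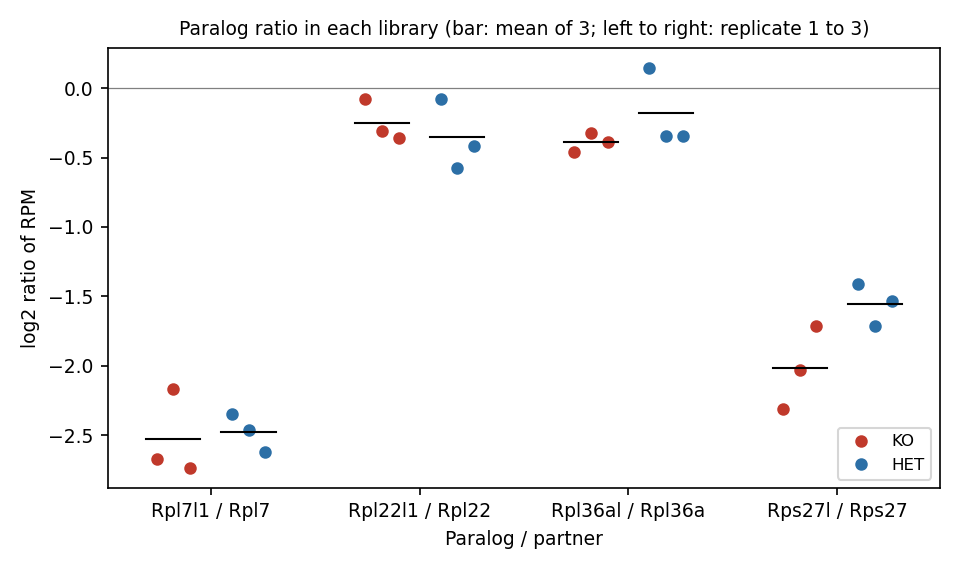
Log2 ratio of the RPM of a paralog to that of its partner in each library, for the 4 pairs compared, with 1 point per library (replicates 1 to 3 from left to right) and a bar for the mean of each genotype. The Rps27l to Rps27 ratios run from −2.31 to −1.71 in KO and from −1.71 to −1.41 in HET, while the groups of the other 3 pairs overlap.

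The other cytosolic ribosome proteins were also highest in KO 3 or HET 3. All 3 had the lower mean in KO, and 0 passed the threshold. Rack1, a scaffold protein of the small subunit, was at 223, 188 and 401 RPM in KO and at 215, 377 and 425 RPM in HET, a difference of −0.34 (interval −1.18 to 0.50). Fau, made as a fusion with a ubiquitin-like protein, was at 67.3, 54.0 and 102 RPM in KO and at 59.0, 78.1 and 103 RPM in HET, a difference of −0.12. Rps3a1 differed by −0.07 (interval −0.67 to 0.54). All 3 were lowest in KO 2. The signs of Fau and Rps3a1 turned without KO 2 or without HET 3.

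Genes that make and regulate ribosomes were taken as further lists, and in each of them 0 genes passed the threshold and 0 had an unadjusted limma p under 0.05. The counts below stand beside 48.6% of all genes with the lower mean in KO, and the medians beside 0.01 over all genes. Of 15 other translation genes with TOP mRNAs, 12 had the lower mean in KO, with a median difference of −0.11. That median was 0.06 with the term for the animal code, 0.02 without KO 2, 0.01 without HET 3, −0.03 without KO 1, −0.30 without KO 3 and −0.18 without HET 1. Naca, of the nascent polypeptide-associated complex, differed by −0.29 (interval −0.92 to 0.33). Hnrnpa1, an RNA-binding protein, was at 68.9, 75.8 and 76.5 RPM in KO and at 65.4, 55.4 and 67.9 RPM in HET. Its difference was 0.23 (interval −0.14 to 0.60), and its groups did not overlap, as in 5.74% of all genes.

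Of 34 ribosome assembly genes, 23 had the lower mean in KO (median −0.07). The median was 0.0040 with the term for the animal code, 0.0014 without HET 3, −0.0043 without KO 1, −0.16 without KO 3 and −0.18 without HET 1. The 2 with the lowest p were higher in KO by the mean. Gnl2, a nucleolar GTPase, was at 49.0, 49.6 and 41.5 RPM in KO and at 40.6, 34.7 and 39.7 RPM in HET, a difference of 0.28 (interval −0.09 to 0.65) without overlap. Sbds, which helps to release Eif6 from the new large subunit, differed by 0.34 (interval −0.24 to 0.91), with overlap. Of 12 genes for RNA polymerase I and its factors, which make the ribosomal RNA, 8 had the lower mean in KO (median −0.07). That median was 0.03 with the term for the animal code, 0.0060 without KO 1, −0.0060 without HET 3, −0.04 without KO 2, −0.18 without KO 3 and −0.19 without HET 1. Polr1a, the largest subunit, differed by −0.39 (interval −0.87 to 0.08) and Taf1d, of its promoter factor, by 0.47 (interval −0.07 to 1.01). Of 5 chaperones of single ribosomal proteins, 4 had the lower mean in KO (median −0.10), among them Grwd1 with −0.18, which attends Rpl3, and Pdcd2 with −0.16, which attends Rps2. The median of the 5 was 0.03 with the term for the animal code, 0.0041 without HET 3, −0.01 without KO 1, −0.05 without KO 2, −0.26 without KO 3 and −0.24 without HET 1.

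Of 14 mTORC1 and MYC genes tested, 10 had the lower mean in KO, with a median of −0.19, or −0.10 without HET 2 or with the term for the animal code. Eif4ebp1, a translation repressor that mTORC1 inactivates, was at 15.5, 11.8 and 27.7 RPM in KO and at 20.3, 31.1 and 41.5 RPM in HET. Its difference of −0.75 (interval −1.58 to 0.07) did not pass, and KO 3 lay above HET 1. Mtor, the kinase itself, was at 40.9, 39.0 and 47.1 RPM in KO and at 36.6, 88.4 and 74.0 RPM in HET, a difference of −0.55 (interval −1.28 to 0.18), with HET 1 the lowest of all libraries.

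All 10 targets of p53, a protein that free ribosomal proteins stabilise when assembly fails, had the lower mean in KO, against 48.6% of all genes, with a median of −0.27 and differences from −0.71 to −0.07. The median was −0.41 without KO 2, −0.49 without HET 2 and −0.33 with the term for the animal code. It was nearer 0 in other runs: −0.25 without KO 1 and −0.23 under upper quartile scaling or with a filter of at least 5 RPM. The mean centred level of the list was −0.33, −0.10 and −0.09 in KO and 0.26, 0.04 and 0.22 in HET. The list means of the groups thus did not overlap, whereas those of the family and of each other list did. This list was singled out after the values of all lists were seen. No test was run over it. Even for fully separate groups, an exact two-sided permutation test of 3 against 3 libraries allows no p below 0.1, and several lists were examined. The genes of a list share the same 6 libraries and are not separate observations. Ccng1 was at 76.2, 86.0 and 122.8 RPM in KO and at 119, 124 and 147 RPM in HET, a difference of −0.47 (interval −0.98 to 0.04). Phlda3 was at 4.25, 5.14 and 8.34 RPM in KO and at 6.79, 9.07 and 12.2 RPM in HET, a difference of −0.59 (interval −1.26 to 0.08). In both genes KO 3 lay within the HET range, and the groups of 0 of the 10 genes were separate, against 5.74% of all genes.

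Of 7 host genes of small nucleolar RNAs, 2 had the lower mean in KO (median 0.02), Snhg6 with −0.54 (interval −1.19 to 0.11) and Snhg5 with −0.22 (interval −0.73 to 0.30). The median was −0.09 without KO 3, −0.11 without HET 2 and 0.09 to 0.13 with the term for the animal code, without KO 2 or without HET 3. Of 75 genes listed for the mitochondrial ribosome, which reads the mitochondrial genome's own messages, 60 had the lower mean in KO (median −0.10), against 48.6% of all genes. The median was 0.04 with the term for the animal code, −0.0020 without KO 2, 0.0003 without HET 3, −0.24 without KO 3 and −0.25 without HET 1. On this list, whose members were not checked one by one, Mrps36 differed by −0.40 (interval −0.94 to 0.14) and Mrps12 by −0.34 (interval −0.81 to 0.14). The mean centred level of the mitochondrial ribosome genes was −0.13, −0.27 and 0.26 in KO and −0.19, 0.06 and 0.28 in HET, the order seen in the cytosolic family but for KO 3 and HET 3 at the top, over a smaller range.

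**Figure D5:**
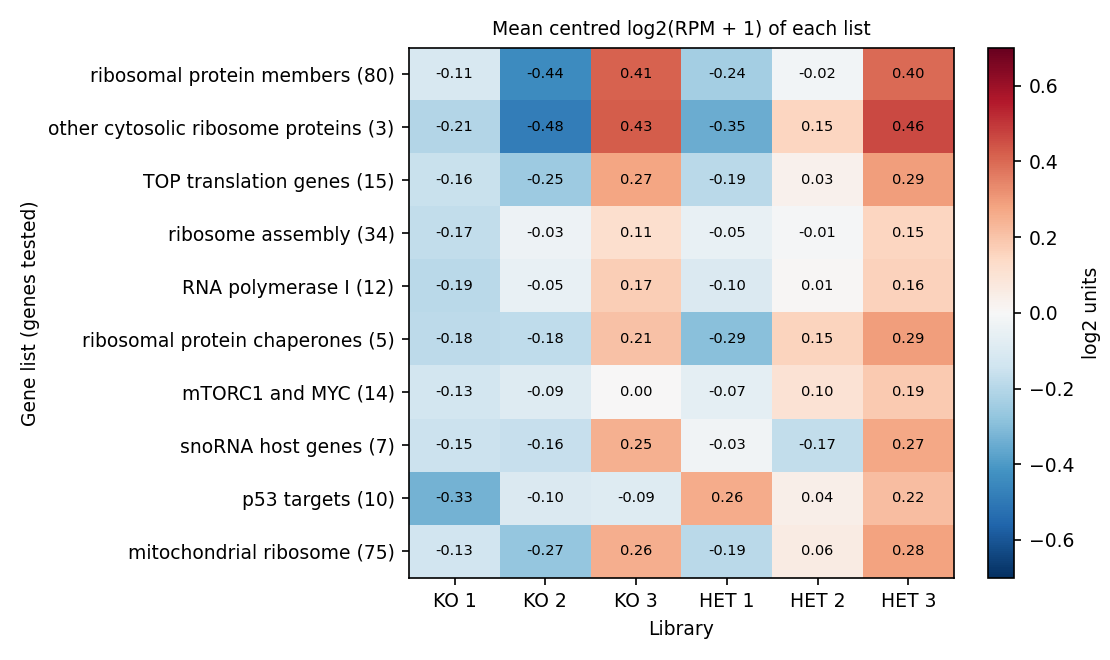
Mean centred log2(RPM + 1) of the ribosomal protein genes and 9 related lists in each library, with the number of genes tested in brackets and the value printed in each cell. The cytosolic family runs from −0.44 in KO 2 to 0.41 in KO 3, and the assembly genes only from −0.17 to 0.15.

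Counting could mix some members with neighbours. Exons of 39 members overlapped those of another annotated gene, in 20 members a gene that is also listed, and in 17 a listed gene on the opposite strand, which reads without strand cannot separate. The largest such neighbour on the same strand was Gm45713 (242 RPM), which overlaps Rpl13a. Rpl24 overlaps Gm28037 (79.9 RPM). Processed copies of ribosomal protein genes are common in the mouse genome: 11 of 300 annotated ones were listed, and together they held 10.9 to 21.6 RPM per library.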

How the data were processed

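The submitters' processing notes name HISAT2, DESeq2 and the mouse build GRCm38 without their versions or roles. Which counter, annotation and strand setting the authors chose is not given in the sources used. The deposited values are log2 RPM, 1 per gene and library. A gene without reads stands in the deposited files as 0.9 read. Of the other values under 1000 reads (93649), 100% were whole reads to within 0.01, and these steps gave the library totals. The authors' deposited difference on the log2 scale and fold change, a ratio, are HET over KO, the opposite direction, and were not used. RPM totals were 27447026 to 35511008 reads, of which listed genes held 18885055 to 23504922.

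Positions of 74 of the 83 members were identical to GENCODE M21 (GRCm38), which gave identifiers, lengths and GC content. Differences were tested with limma 3.58.1 (trend and robust moderation, R 4.3.3) on log2(RPM + 1) for genes whose mean reached 1 RPM, adjusted by Benjamini-Hochberg over 14238 genes, threshold 0.05. The scale understates changes of low genes. Shares and paralog ratios were compared by exact two-sided permutation tests (scipy 1.17.1). The script was tested on simulated data. Separate animals are given only by their codes, so p-values measure the spread between these libraries.

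The members and lists were chosen with earlier results of these data known. Named genes are the paralog pairs, the 4 members with the lowest p per direction, the 4 highest and the 4 lowest per kilobase, 6 fixed members, the 2 genes of each list with the lowest p, the other ribosome proteins and the 5 genes most alike. Results for 2 genes are not reported here. Others are said to be chosen after their values were seen, or mark a range or an overlap. Alternatives covered scaling, filters, pseudocounts, limma-voom, covariates, denominators, transcript length and leaving out each library. Figures were drawn with matplotlib 3.10.9.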

Additional observations from a re-analysis of the deposited data

How the results depend on the processing

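In each alternative run, 0 of all genes and 0 members passed the threshold in limma, and the lowest adjusted p of any gene was 0.0965, with a term for the animal code. At an unadjusted limma p under 0.05, 2 of 80 members were counted without KO 3, against 6.6% of all genes. In each other alternative 0 members were counted, against 0.59% to 12% of all genes. The number of members with the lower mean in KO, 62 of 80, was 12 with the term for the animal code, against 39.9% of all genes. With the acinar covariate it was 45, against 45.1% of all genes. The number was 14 to 80 with 1 library left out, against 41.1% to 55.6% of all genes. The share of reads differed by −0.328 to 0.105 points with 1 library left out and by −0.116 to −0.0687 points with other denominators or members. With 1 library left out, the ratio of Rpl7l1 to Rpl7 differed by −0.226 to 0.0579 and that of Rpl22l1 to Rpl22 by −0.00414 to 0.244. Of 460 alternative values for 33 named genes, 31 had the other sign and 0 passed the threshold. With the term for the animal code, the differences were 0.0027 for Rpsa, 0.030 for Rplp1, 0.188 for Rplp2, 0.015 for Rps6, 0.091 for Rps27a, 0.111 for Rps3a1, 0.104 for Fau, 0.028 for Grwd1 and 0.033 for Pdcd2. With the acinar covariate they were 0.044 for Rplp2, 0.0057 for Rps27a and 0.0043 for Rps3a1. With 1 library left out they ran from −0.0053 to 0.399 for Rps21, −0.081 to 0.332 for Rpl9, −0.060 to 0.236 for Rps9, −0.127 to 0.293 for Rpl31, −0.457 to 0.0026 for Rpsa, −0.377 to 0.061 for Rplp1, −0.305 to 0.175 for Rplp2, −0.411 to 0.0152 for Rps6, −0.278 to 0.170 for Rps27a, −0.269 to 0.102 for Rps3a1, −0.368 to 0.082 for Fau and −0.390 to 0.0049 for Pdcd2. The cause of these reversals was not tested. No paired analysis was possible because the labels give nothing that pairs a KO library with a HET library. The transcript length per kilobase, the closer look at HET 2 and the comparison of p53 list means were chosen after seeing the data.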
